A study of Homo sapiens with 8 samples.

Results

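The regions described here are 365 peaks of H3K27ac, the acetylation of lysine 27 on histone H3, out of 126470 peaks measured in H3122 lung cancer cells and in 3 ALK inhibitor-resistant lines derived from them (0.289%). They were chosen by their own ChIP-seq values: a peak was included when its level in erCriz0, erAlec0 and erLor0 was each at least 1 higher than in therapy-naive H3122 cells on a log2 scale. H3122 is an ALK-positive non-small cell lung cancer line that carries the EML4-ALK fusion. The resistant lines had been derived from it by gradual dose escalation and were kept in 0.5 µM crizotinib (erCriz0), 2 µM alectinib (erAlec0) or 2 µM lorlatinib (erLor0). RNA had been isolated after 48 h without inhibitor, and the cells used for ChIP-seq were in DMSO vehicle per the labels, naive cells included. Each of the 4 lines gave 1 ChIP-seq and 1 RNA-seq library, so the values have no replicate error, no test between lines was possible, and a line here is a single derivation. All 3 changes of a peak were taken against the same naive library, so any deviation of that library enters all 3 at once. The lines erCriz1 and erLor1, cells given lorlatinib for 2 weeks and the pooled input of the same series were not analysed here. Levels are rlog values, a log2 of the read count after library scaling in which differences at low counts are drawn toward 0, and read depth is unknown.

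H3K27ac is placed by the acetyltransferases p300 and CBP and marks nucleosomes that flank active promoters and enhancers. Promoters of many widely used genes lie in CpG islands, stretches of GC-rich DNA in which the CG dinucleotide is common, while enhancers in introns and between genes mostly lack such stretches. ALK inhibitors block the kinase of the EML4-ALK fusion, on which these cells depend, and cells that become resistant can do so with changes in gene regulation as well as by changes in ALK itself.

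Epithelial genes were abundant in the RNA of all 4 lines, as in an epithelial lung cancer line. The keratin genes KRT7, KRT8, KRT18 and KRT19 and the epithelial adhesion gene EPCAM lay between 12.3 and 15.2 rlog in every line, and NKX2-1, a lung lineage transcription factor, lay between 8.67 and 9.18. The leukocyte gene PTPRC was listed at 0 in all 4 lines. Of the markers of differentiated alveolar cells, SFTPB (1.64 to 2.03) and NAPSA (3.53 to 4.23) were below the level of 4.64 that was used here to call a gene expressed. COL1A1, a collagen gene often used to mark fibroblasts, was expressed in all 4 lines (9.49 to 10.1), while the fibroblast genes DCN and PDGFRB lay below 2.21. The endothelial gene CDH5 was below the expression level in naive cells (4.10) and erCriz0 (4.28) and above it in erAlec0 (5.78) and erLor0 (5.64), while PECAM1 and VWF lay below 0.19.

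The DNA under the gained peaks was of visibly different kinds, and 7 peaks that were named by rule show it. Each sequence is the central 300 bases of a peak on the plus strand of hg38, with every CG dinucleotide in capitals. The first 5 peaks had their centre within 1 kb of a transcript start, a place called a promoter here, at FLT1, SLC24A4, PRR5L, TMEM200C and LTBP1. The last 2 lay in introns of the long noncoding RNA gene ENSG00000262898 and of ALK. FLT1, SLC24A4, PRR5L and ENSG00000262898 are shown because their peaks were among the 10 with the greatest smallest change, and the other 3 because the paired gene had changed RNA in at least 2 lines.
FLT1 promoter, chr13:28494580-28494879: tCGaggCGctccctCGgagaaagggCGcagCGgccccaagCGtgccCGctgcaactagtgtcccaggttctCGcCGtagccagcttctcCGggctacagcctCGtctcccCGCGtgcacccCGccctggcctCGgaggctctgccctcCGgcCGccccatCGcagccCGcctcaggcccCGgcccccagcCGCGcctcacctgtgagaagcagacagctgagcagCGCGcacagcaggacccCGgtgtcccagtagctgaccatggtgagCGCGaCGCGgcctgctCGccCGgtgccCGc
SLC24A4 promoter, chr14:92408531-92408830: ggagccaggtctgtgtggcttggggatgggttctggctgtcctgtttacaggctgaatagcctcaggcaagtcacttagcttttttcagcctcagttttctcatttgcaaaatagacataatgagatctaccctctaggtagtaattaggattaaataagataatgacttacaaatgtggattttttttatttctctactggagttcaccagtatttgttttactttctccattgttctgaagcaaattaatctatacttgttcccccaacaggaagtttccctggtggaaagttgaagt
PRR5L promoter, chr11:36376919-36377218: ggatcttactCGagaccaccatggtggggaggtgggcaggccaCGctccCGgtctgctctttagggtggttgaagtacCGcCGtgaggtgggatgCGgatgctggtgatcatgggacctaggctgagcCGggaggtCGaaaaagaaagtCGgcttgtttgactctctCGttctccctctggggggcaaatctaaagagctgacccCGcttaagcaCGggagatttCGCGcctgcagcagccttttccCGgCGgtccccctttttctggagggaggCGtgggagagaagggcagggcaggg
TMEM200C promoter, chr18:5895883-5896182: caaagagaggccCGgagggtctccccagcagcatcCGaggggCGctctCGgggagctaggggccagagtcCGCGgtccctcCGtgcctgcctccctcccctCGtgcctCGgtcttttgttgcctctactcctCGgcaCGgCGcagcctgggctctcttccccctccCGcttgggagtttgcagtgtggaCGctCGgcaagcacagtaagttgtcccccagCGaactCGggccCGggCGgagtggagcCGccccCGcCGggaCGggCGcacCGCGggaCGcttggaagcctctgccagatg
LTBP1 promoter, chr2:32947190-32947489: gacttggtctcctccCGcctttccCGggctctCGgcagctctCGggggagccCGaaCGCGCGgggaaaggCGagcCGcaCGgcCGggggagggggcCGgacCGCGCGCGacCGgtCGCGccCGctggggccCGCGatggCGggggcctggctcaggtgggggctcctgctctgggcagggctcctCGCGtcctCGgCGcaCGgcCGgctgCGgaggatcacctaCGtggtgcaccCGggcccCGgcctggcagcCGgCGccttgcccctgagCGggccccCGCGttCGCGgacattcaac
ENSG00000262898 intron, chr17:83179645-83179944: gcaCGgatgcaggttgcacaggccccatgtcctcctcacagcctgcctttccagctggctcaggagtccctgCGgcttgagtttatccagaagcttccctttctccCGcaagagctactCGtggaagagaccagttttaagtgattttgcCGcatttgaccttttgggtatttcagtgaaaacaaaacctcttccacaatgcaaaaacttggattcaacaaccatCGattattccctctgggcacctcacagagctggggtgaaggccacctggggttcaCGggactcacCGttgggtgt
ALK intron, chr2:29423321-29423620: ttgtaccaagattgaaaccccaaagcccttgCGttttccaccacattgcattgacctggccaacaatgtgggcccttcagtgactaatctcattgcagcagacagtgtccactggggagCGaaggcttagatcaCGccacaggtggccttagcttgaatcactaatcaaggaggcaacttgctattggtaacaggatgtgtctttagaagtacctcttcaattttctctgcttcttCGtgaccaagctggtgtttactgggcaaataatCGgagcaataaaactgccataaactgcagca
The LTBP1, FLT1 and TMEM200C windows held 41, 32 and 27 CG dinucleotides at a GC content of 77.7, 73 and 70%. The PRR5L promoter window held 17. The SLC24A4 window, although 301 bases from its nearest transcript start at the peak's centre, held 0 CG and had a GC content of 39.3%, unlike the other promoters shown. The ALK intron window held 5 CG and the only match among these 7 to the AP-1 motif TGANTCA, in which N is any base, and the ENSG00000262898 window held 8 CG.

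The gained peaks mostly had a moderate rlog level in naive cells and were a little more than 1 log2 unit higher in each resistant line. Their median rlog was 5.06 in naive cells (lowest 2.13, highest 10.3), 6.42 in erCriz0 (3.30 to 11.6), 6.61 in erAlec0 (3.17 to 12.2) and 6.53 in erLor0 (3.28 to 12.3). The medians over all 126470 peaks were 4.12, 4.03, 4.13 and 4.02, values that the scaling of the libraries brings close together. Classes of peaks still differed between the libraries, as given below. In naive cells 277 of the 365 peaks (75.9%, against 55.0% of all peaks) were already at or above 3.91, the log2 of 15 reads that was used here as a detection level. Because rlog draws low counts of a peak together, a naive value is not a count of naive reads and can depend on the resistant libraries. That share is therefore shaped in part by the rule and the transform. By the rule every one of these peaks is higher in all 3 resistant lines than in naive cells, and these differences are a description and not a finding.

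**Figure D1:**
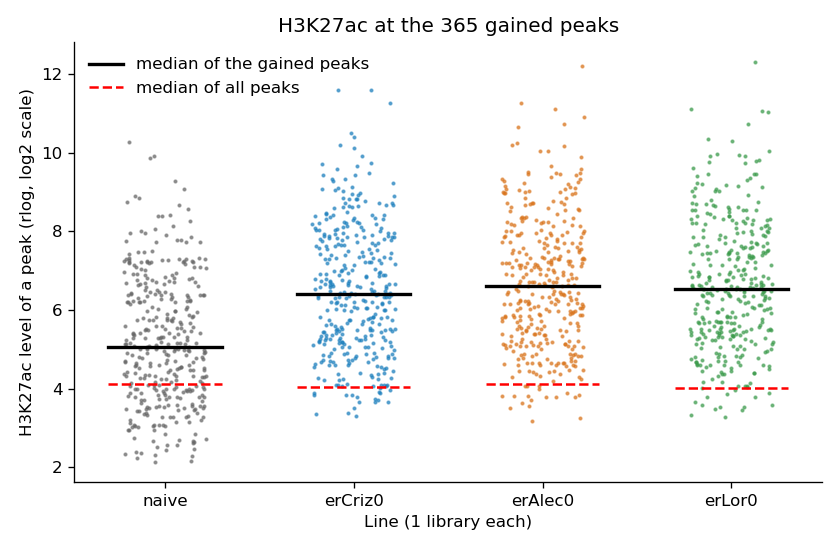
H3K27ac level (rlog, log2 scale, y axis) of each of the 365 gained peaks (points) in naive cells and the 3 resistant lines (x axis, 1 library each), with the median of the gained peaks as a black line and the median of all 126470 peaks as a dashed red line. The median of the gained peaks goes from 5.06 in naive cells to between 6.42 and 6.61 in the resistant lines, while the median of all peaks stays between 4.02 and 4.13.

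Most gained peaks lay near the limit. The smallest of a peak's 3 changes had a median of 1.12 and a maximum of 1.82, and it was under 1.2 in 258 of 365 peaks. No peak was higher by 2 or more in all 3 lines, and 6 were higher by 1.5 or more in all 3. The largest of the 3 changes was in erAlec0 for 142 peaks, in erLor0 for 133 and in erCriz0 for 90. Changes of at least 2 were found at 40 peaks in erAlec0, 21 in erLor0 and 6 in erCriz0. The 3 resistant lines differed from one another by a median of 0.40. In 344 peaks this spread was less than the smallest change. The rule keeps only peaks with all 3 changes at 1 or more, so that count follows partly from the selection. The count over all peaks was not taken, and likeness between the lines cannot be read from it.

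**Figure D2:**
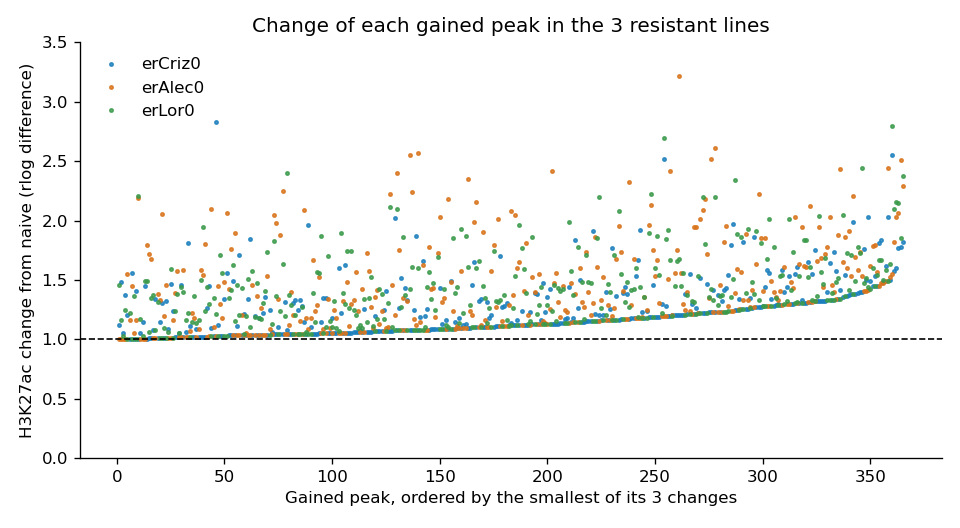
Change in H3K27ac from naive cells (rlog difference, y axis) of each gained peak in erCriz0, erAlec0 and erLor0 (coloured points), with peaks ordered along the x axis by the smallest of their 3 changes and the limit of 1 as a dashed line. The smallest change stays under 1.2 for 258 of the 365 peaks, and no change exceeds 3.22.

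Just inside the limit, the peak at the start of TMEM25 on chromosome 11 had a smallest change of 1.0006. The next were an intronic peak of SH3D19 on chromosome 4 (1.0007) and the peak at the start of P2RY1, a purinergic receptor gene, on chromosome 3 (1.0008). Just outside, an intronic peak of RAB7A (0.9997), the promoter peak of NOTCH2 (0.9997), which was 2.60 higher in erLor0, and an intergenic peak on chromosome 7 (0.9979) missed it. The limit therefore separates peaks with nearly equal values.

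The peak with the greatest smallest change lay in an intron of ENSG00000262898 near the end of chromosome 17 (chr17:83179340-83180249). It was at 4.24 in naive cells, 6.06 (erCriz0), 6.53 (erAlec0) and 6.61 (erLor0). The next was the promoter peak of FLT1, the gene of the VEGF receptor VEGFR1 (chr13:28494047-28495411), at 3.83, 5.61, 6.34 and 5.69 in the same order. In naive cells both peaks were below 5.06, the median of the gained peaks. Among the resistant lines they differed by 0.55 and 0.73, more than the median of 0.40 over the gained peaks. The medians of their surroundings changed by at most 0.46. FLT1 RNA did not move with its promoter: it was 4.79 in naive cells, 4.19 (erCriz0), 4.86 (erAlec0) and 5.41 (erLor0).

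A pair of neighbouring peaks on chromosome 6 (chr6:156347213-156348988 and chr6:156349156-156350164) came next. The first was at 4.58 in naive cells and between 6.36 and 6.73 in the resistant lines, and the second at 4.16 and between 5.75 and 6.31. The genes paired with them, ENSG00000285797 and ENSG00000287092, were listed at 0 in RNA in all 4 lines. The peak at SLC24A4, a sodium, potassium and calcium exchanger gene (chr14:92406145-92411215), was 5071 bases long and went from 7.20 in naive cells to 8.78, 9.02 and 9.30, while SLC24A4 RNA stayed between 0.74 and 0.85. The peak at a start of PRR5L, whose product binds the mTORC2 kinase complex, went from 5.13 to 6.62, 6.61 and 6.63, the most even of the examples given here. Its surroundings were less even, with other peaks within 1 Mb higher by medians of 0.68 (erCriz0), 0.09 (erAlec0) and 0.04 (erLor0). PRR5L RNA was 6.56 in naive cells, 7.21 (erCriz0), 6.24 (erAlec0) and 6.23 (erLor0). The remaining 4 of the 10 peaks lay in intergenic DNA on chromosomes 18 and 12 and at starts on chromosome 15 and X, and none of their paired genes was called expressed. Around the peak on chromosome 12 the other peaks were higher by a median of 0.60 in erAlec0.

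The greatest change in any single line was 3.22, at an intronic peak on chromosome 7 paired with ENSG00000225718 (chr7:69271877-69275172). It was at 5.47 in naive cells, 6.68 (erCriz0), 8.69 (erAlec0) and 7.15 (erLor0). In erCriz0 the greatest change, 2.83, was at the start region shared by LRRN1 and SUMF1. In erLor0 it was 2.80, at the intergenic peak on chromosome 18 named above.

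Gained peaks were longer than the average peak. Their median length was 1305 bases (253 to 14615) against 522 for all peaks, although quantile normalization of the libraries gave gained peaks with a median of 799 bases, and 222 of 365 (60.8%) were at least 1000 bases long against 30.5% of all peaks. Per kilobase of length, however, their naive level had a median of 4.73 against 5.23 for all peaks. Lengths and levels go together in these data, since the read count of a peak covers its whole length and rlog shrinks the differences of peaks with few reads. Among peaks with a naive level below 4, 0.166% were gained, against 0.319% at 4 to 5, 0.5% at 5 to 6, 0.651% at 6 to 7 and 0.306% at 7 and above. Within each of these ranges the gained peaks were longer than all peaks of the range, with medians of 645 against 303 bases below 4. From 6 to 7 the medians were 2519 against 1657 bases. Peaks were called on 4 samples and merged, so a length can depend on signal in the resistant lines, which the rule used. Greater length and a lower level per kilobase may therefore follow partly from the selection, also at a given naive level.

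The longest gained peak (14615 bases, chr17:59360967-59375581) covered part of YPEL2 and also had the highest naive level, 10.3, with 11.6 (erCriz0), 12.2 (erAlec0) and 12.3 (erLor0). YPEL2 RNA was higher in each resistant line, at 7.10 in naive cells, 8.03 (erCriz0), 7.61 (erAlec0) and 7.96 (erLor0), without reaching a change of 1. The next longest (11399 bases) lay at TRIM14, a gene of antiviral signalling, whose RNA was lower in each resistant line (9.25 in naive cells against 8.49, 8.74 and 8.90). The second highest naive level, 9.93, was at the promoter of P2RY6, a receptor for extracellular nucleotides. The P2RY6 peak was not gained once a trend with GC content, described below, was removed. P2RY6 RNA was 5.39 in naive cells, 6.19 (erCriz0), 5.52 (erAlec0) and 6.43 (erLor0).

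Promoters made up a larger share of the gained peaks than of all peaks. The centre of 161 gained peaks (44.1%) was within 1 kb of a transcript start, against 21.5% of all peaks. Another 155 (42.5%) were intronic against 55.1%, 41 (11.2%) intergenic against 18.6%, and 8 (2.19%) exonic against 4.81%. Counting only peaks that overlapped a transcript start gave 35.9% against 15.7%. The excess was found at low and moderate naive levels: 46.5% of the gained peaks below 4 were promoters against 14.1% of all peaks there, and 54.3% against 22.4% from 5 to 6. At levels of 7 and above the order was the opposite, 30% against 43.3%.

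The promoters among the gained peaks were mainly CpG-rich. Here a window counts as CpG-rich when its GC content is at least 50% and its CG dinucleotides are at least 0.6 of the number that its C and G content predicts. Of the 161 gained promoter peaks 111 (68.9%) were CpG-rich against 35.1% of all promoter peaks, with a median of 24 CG in 300 bases against 10 and a median GC content of 66.7% against 56.7%. Of the 204 gained peaks farther from a start 7 (3.43%) were CpG-rich, near the 3.3% of all such peaks. The sequences of LTBP1, FLT1 and TMEM200C printed above belong to the first kind, and that of ALK to the second.

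CpG-rich promoters were higher in the resistant libraries as a class. Over all 9550 CpG-rich promoter peaks the median change from naive cells was 0.41 (erCriz0), 0.35 (erAlec0) and 0.52 (erLor0), whereas over the 95949 other peaks more than 1 kb from a start it was -0.09, -0.05 and -0.10. Of the CpG-rich promoter peaks 1.16% were gained, against 0.205% of that last class. When the trend of each line with GC content was removed first, an alternative chosen after seeing the data, 342 peaks were gained and 79 of them (23.1%) were promoters, near the 21.5% of all peaks. Of the 365 peaks 253 (69.3%) were still gained, which are 74.0% of the 342. They comprised 60 of the 161 promoter peaks and 193 of the 204 others. GC content of the DNA can affect the yield of a sequencing library, and with 1 naive library a difference between libraries and a difference between lines cannot be told apart. The correction raises the changes of peaks with low GC content and lowers those with high GC content, so that peaks away from starts were bound to pass more often. The promoter share thus differed between the scalings.

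**Figure D3:**
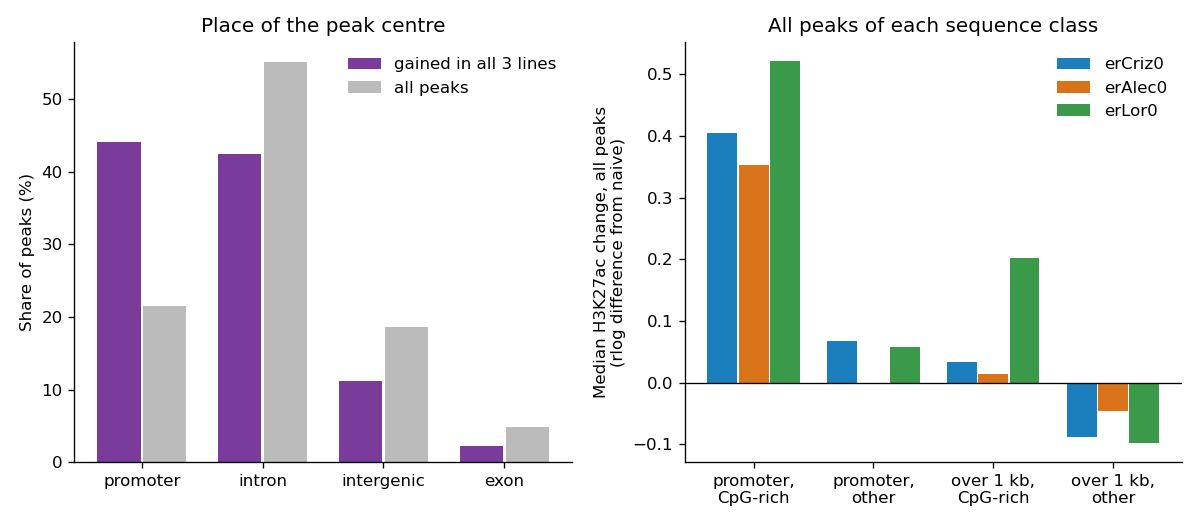
Left: share of peaks (%, y axis) by the place of the peak centre (x axis) among the 365 gained peaks (purple) and all 126470 peaks (grey), with promoters at 44.1% against 21.5%. Right: median change in H3K27ac from naive cells (rlog difference, y axis) over all peaks of 4 sequence classes (x axis) in erCriz0, erAlec0 and erLor0 (coloured bars), where CpG-rich promoters stand at 0.35 to 0.52 and the other classes between -0.10 and 0.20.

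The GC box GGGCGG, bound by SP and KLF factors, was searched on either strand in the central 300 bases. It was present in 90 of the 161 gained promoter peaks (55.9%) against 31.7% of all promoter peaks, and in 6.86% of the other gained peaks against 8.12%. The motif holds a CG and only G and C, and the gained promoter windows had more of these than all promoter windows. Its shares were not matched for base composition, so they show no difference beyond that. At promoters the AP-1 motif TGANTCA was in 3.11% of gained peaks against 6.61%. AP-1 factors, dimers of FOS and JUN proteins, bind TGANTCA, which was present in 29 gained peaks (7.95%) against 9.68% of all. Away from starts the AP-1 motif was present in 11.8% of gained peaks against 10.5%. The E-box CAGGTG, which ZEB and SNAI repressors can bind, was present in 36.8% of gained peaks away from starts against 30.2%, and the SOX motif ACAATG in 20.1% against 15.3%. The FOX motif TGTTTAC was in 6.37% against 4.52% and the RUNX motif TGTGGTT in 6.86% against 5.55%. Lower shares than in all peaks away from starts were found for the TCF or LEF motif ATCAAAG (3 of 204, 1.47% against 3.91%). The NKX2 motif CACTTGA (6.86% against 8.72%) and the glucocorticoid receptor motif ACANNNTGT (6.86% against 8.61%) were lower too. The TEAD motif CATTCC was at 17.2% against 16.5%, and the CRE motif TGACGTCA at 0 of 365 against 0.257% of all peaks. These are counts of letters in windows and carry no test. A window of 300 bases also covers a smaller part of the gained peaks, which were longer, than of most other peaks.

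Gained peaks were found on 23 chromosomes, most densely on chromosome 11 (33 peaks, 0.553% of its peaks), chromosome 18 (11, 0.511%) and chromosome 3 (34, 0.473%), and least densely on chromosome 20 (3, 0.0873%). The peaks around them were often slightly higher than in naive cells. For each gained peak the median change of its neighbours up to 1 Mb away was taken, and over the 365 peaks this had a median of 0.10 for erCriz0, 0.18 for erAlec0 and 0.11 for erLor0. It was above 0 around 261, 257 and 254 gained peaks respectively, and ranged from -1.13 in erLor0 to 1.72 in erAlec0. It reached 0.5 around 21, 74 and 13 gained peaks respectively, around 98 in any line and around 0 in all 3. Such medians were not taken around the other peaks, so these counts have no background. After subtraction of the regional median the gained peaks kept median changes of 1.14, 1.23 and 1.25, which start from the changes used to choose them.

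A minority of the gained peaks lay close together: 26 groups with gaps of at most 50 kb held 56 peaks, 23 of them pairs, 2 of 3 peaks and 1 of 4. The group of 4 lay on chromosome 19 in the kallikrein locus, a cluster of genes for secreted serine proteases (chr19:51018062-51035971). Its peaks were at KLK10, at the starts of KLK11 and KLK12, and in KLK12. The longest, which reached into KLK10, was at 7.78 in naive cells, 8.82 (erCriz0), 9.66 (erAlec0) and 9.02 (erLor0), and the one at the start of KLK11 at 7.29, 9.28, 9.50 and 8.67. The other peaks within 1 Mb changed by a median of -0.06 to 0.21. KLK10 RNA was 4.20 in naive cells, 4.29 (erCriz0), 4.74 (erAlec0) and 5.20 (erLor0), the last higher by 1.01. KLK11 RNA stayed under the expression level (2.71 in naive cells, up to 3.36 in erAlec0), and KLK12 was listed at 0 in all 4 lines. All 4 peaks were also gained with the GC trend removed.

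Other genes paired with at least 3 gained peaks were CTNNA2, MFAP3, RSU1 and SRPK2, with 3 each. At CTNNA2, which encodes the neural alpha-N-catenin, the 3 intronic peaks lay in a region whose median was 1.35 higher in erAlec0, and its RNA was near the bottom of the scale in all 4 lines (-1.74 to -1.72). At RSU1, a RAS suppressor gene, the 3 intronic peaks changed by 1.13 or more, and its RNA by 0.46, 0.03 and 0.31 in erCriz0, erAlec0 and erLor0. Around the RSU1 peaks chr10:16671266-16672270 and chr10:16674563-16674980 the other peaks were higher too. The regional medians there were 0.71 and 0.79 in erAlec0 and 0.35 and 0.29 in erLor0. MFAP3 RNA differed by at most 0.30, and SRPK2 RNA, from a gene for a splicing factor kinase, by -0.20, 0.35 and 0.09. Several gained peaks around 1 gene were therefore not accompanied by RNA changes of 1 at any of these 4.

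The table pairs each peak with genes within 20 kb, and 702 genes were paired with a gained peak. Of these, 385 were protein-coding and 179 long noncoding RNA genes, 200 were listed at 0 in RNA in all 4 lines, and 268 (38.2%) were expressed, against 29% of all 43869 genes in the table. In bulk RNA, fewer cells that use a gene and less RNA per cell cannot be told apart. RNA was not used to choose the peaks, but the same line was used for both, with 1 library of each.

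RNA of the paired genes had a median slightly above 0 in each resistant line. Over the 268 expressed genes the median change was 0.09 (erCriz0), 0.06 (erAlec0) and 0.08 (erLor0), against -0.02, 0.00 and 0.00 over all 12701 expressed genes. An RNA level at least 1 higher than in naive cells was found for 17 genes in erCriz0 (6.34%, background 2.65%), 11 in erAlec0 (4.1%, background 2.46%) and 7 in erLor0 (2.61%, background 1.1%). A level at least 1 lower was found for 2 genes in erCriz0 (0.746%, background 1.65%), 5 in erAlec0 (1.87%, background 2.07%) and 2 in erLor0 (0.746%, background 0.74%). RNA was above naive in all 3 lines for 89 genes (33.2%, background 22.5%) and below it in all 3 for 40 (14.9% against 24.5% of all expressed genes). A gene counts as expressed through its highest library, so a gene that is high in 1 line alone can enter by that line. Without a minimum level, over all paired genes not at 0 in all libraries, the medians were 0.0085, 0.023 and 0.014 in erCriz0, erAlec0 and erLor0. Without the 98 peaks in regions of gain the median in erCriz0 was 0.024. Among genes of the 150 peaks written to at most 6 decimals 1.67% were higher in erAlec0 and 0% in erLor0, against 6.08 and 4.73% for the other 215 peaks. No RNA change of 1 upward in any line was found for 241 of the 268 genes (89.9%), against 95.0% of all expressed genes.

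**Figure D4:**
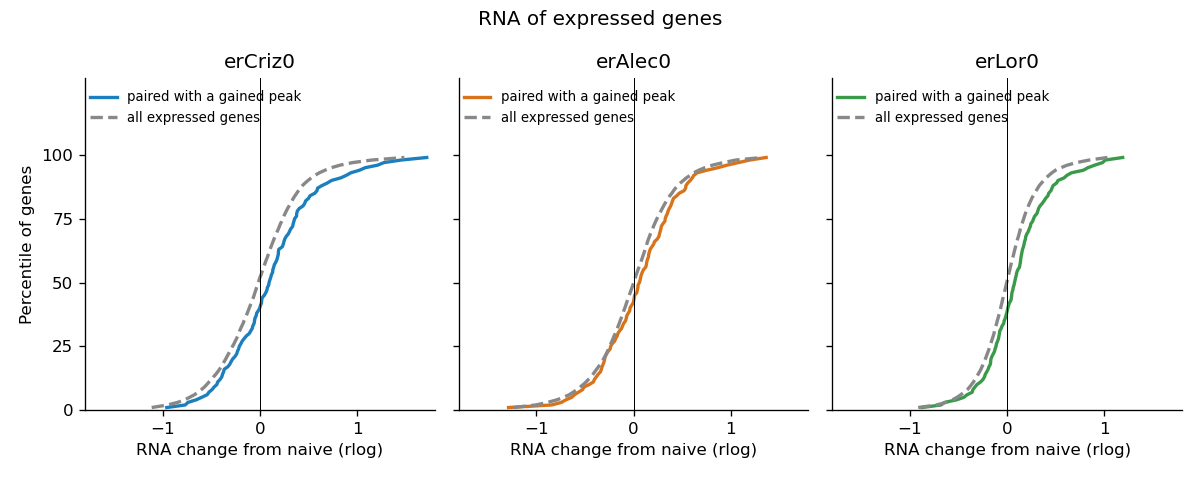
Percentile of expressed genes (y axis) against RNA change from naive cells (rlog difference, x axis) in erCriz0, erAlec0 and erLor0 (panels), for the 268 genes paired with a gained peak (solid) and all 12701 expressed genes (dashed). The solid lines lie to the right of the dashed lines over most of their length, with medians of 0.06 to 0.09 against -0.02 to 0.00.

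A gained promoter peak was nearest to the start of 150 paired genes, of which 96 (64%) were expressed, against 59% of the genes at any promoter peak. For them the RNA change had a median of 0.08, 0.05 and 0.09 for erCriz0, erAlec0 and erLor0, against 0.09, 0.08 and 0.06 for the 172 expressed genes without a gained promoter peak. RNA was at least 1 higher for 6 (6.25%), 7 (7.29%) and 3 (3.12%) of the 96, against 2.71, 2.45 and 1.08% of expressed genes at any promoter peak and 6.4, 2.33 and 2.33% of the 172. It was at least 1 lower for 1, 0 and 0 of the 96 and for 1, 5 and 2 of the 172. The difference between the 96 and the 172 was not tested. Genes with a gained promoter and RNA below the expression level in all 4 lines included SOCS1, a feedback inhibitor of cytokine signalling, and PCDH8, a protocadherin gene, which were named after their values were seen. The SOCS1 promoter peak was at 4.06 in naive cells and between 5.35 and 5.39 in the resistant lines, with RNA from 2.78 to 3.14. The PCDH8 promoter peak was at 5.13 and between 6.14 and 6.48, with RNA from 3.33 to 3.60. Neither promoter peak was gained with the GC trend removed.

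RNA was at least 1 higher in 2 or 3 resistant lines for 7 paired genes (background 1.02%, or 129 of all 12701) and at least 1 lower for 2 (background 0.811%, or 103). TMEM200C, a transmembrane protein gene, was the only paired gene past the limit in all 3, with RNA at 4.32 in naive cells, 5.39 (erCriz0), 6.13 (erAlec0) and 5.56 (erLor0). Its promoter peak on chromosome 18 was at 3.79, 4.81, 5.37 and 5.29 in the same order, so that both were lowest in naive cells and highest in erAlec0. The surrounding peaks were higher by medians of 0.19, 0.84 and 0.46, and the peak was not gained with the GC trend removed. The part of either in this result was not tested. TMEM200C RNA in naive cells lay below 4.64, the level used here to call a gene expressed. The gene therefore counts as expressed through the resistant lines alone.

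ALK, the kinase gene whose fusion drives these cells, was paired with 1 gained peak of 47, in an intron (chr2:29422830-29424110). The peak was at 4.59 in naive cells, 6.19 (erCriz0), 5.64 (erAlec0) and 5.66 (erLor0). ALK RNA was 8.18 in naive cells, 10.6 (erCriz0), 9.58 (erAlec0) and 8.10 (erLor0), so that it was higher in erCriz0 and erAlec0 and not in erLor0 although the peak was gained there too. Other peaks within 1 Mb were higher by a median of 0.73 (erCriz0), 0.26 (erAlec0) and -0.04 (erLor0), which is the same order as the RNA. Reads of the fusion transcript that fall on ALK exons are counted as ALK, and the RNA values do not separate fused from unfused copies of the gene. Where the peak lies relative to the break of the fusion was not examined. By fluorescence in situ hybridization of these gradually derived lines, the paper found EML4-ALK amplified in most erCriz cells and some erAlec cells. It found no such amplification in erLor cells. The part of copy number in these values was not tested.

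LTBP1, which encodes a protein that holds TGF-beta in the matrix, had RNA of 6.94 in naive cells, 8.61 (erCriz0), 7.98 (erAlec0) and 7.77 (erLor0). Its CpG-rich promoter peak was at 4.29, 5.45, 6.24 and 6.36. The gain was thus least in erCriz0, where the RNA was highest, and the peak was not gained with the GC trend removed. FRMD3, a FERM domain gene, had RNA of 6.20, 7.41, 7.92 and 6.99, and the intronic peak was at 7.33, 8.42, 8.35 and 8.47. RGS6, a regulator of G protein signalling, had RNA of 4.70, 6.20, 5.76 and 5.09 and a long promoter peak at 7.23, 8.95, 8.27 and 8.44. At RGS6 both the peak and the RNA were highest in erCriz0, and around it the other peaks were 0.83 higher in erAlec0.

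CDYL2, a chromodomain protein gene, had RNA of 6.00 in naive cells, 7.28 (erCriz0), 7.21 (erAlec0) and 6.52 (erLor0), with a promoter peak of 319 bases at 3.46, 5.25, 4.70 and 4.81. That peak and the promoter peak of ACOXL were not gained with the GC trend removed. ACOXL, related to the acyl-CoA oxidases, was paired with 2 gained peaks, at its promoter and in an intron. Its RNA was 3.67 in naive cells, 3.63 (erCriz0), 4.75 (erAlec0) and 4.84 (erLor0), and its intronic peak was at 7.92, 9.23, 9.52 and 9.75. ACOXL RNA was thus unmoved in erCriz0, where both peaks were gained. In naive cells and erCriz0 it lay below 4.64, the level used here to call a gene expressed. ACOXL therefore counts as expressed through erAlec0 and erLor0 alone. The order of the 3 resistant lines was the same in RNA and peak at TMEM200C and at the ACOXL intron, and not the same at ALK, LTBP1, FRMD3, RGS6 and CDYL2. TMEM200C and ACOXL were also the genes among these with naive RNA below the expression level.

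**Figure D5:**
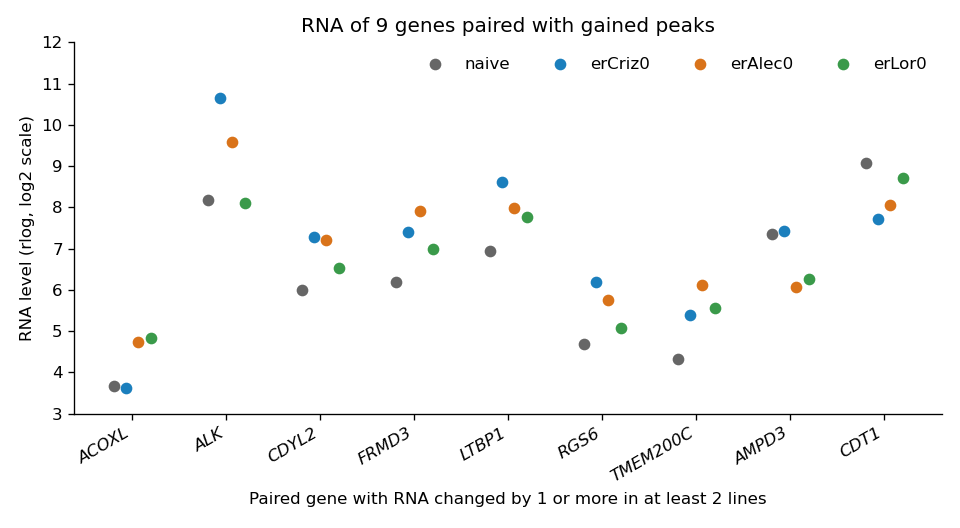
RNA level (rlog, log2 scale, y axis) of the 9 expressed genes paired with a gained peak whose RNA differed from naive cells by 1 or more in the same direction in at least 2 resistant lines (x axis), with 1 point per line. For TMEM200C all 3 resistant lines lie at least 1.07 above naive cells, and for AMPD3 and CDT1 at the right the naive value is above 2 of the lines by 1 or more.

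Lower RNA beside a gained peak was found for AMPD3 and CDT1 in 2 lines each. AMPD3, an AMP deaminase gene, had RNA of 7.35 in naive cells, 7.44 (erCriz0), 6.06 (erAlec0) and 6.26 (erLor0), while a peak of 8923 bases at its start region was at 8.85, 10.2, 10.2 and 9.93. CDT1, a licensing factor of DNA replication, had RNA of 9.08, 7.72, 8.07 and 8.72. The gained peak paired with CDT1 lay at a start of the neighbouring gene PIEZO1, whose RNA was between 9.27 and 9.87. The cyclin gene CCNE2, with RNA of 7.62, 7.51, 6.01 and 6.82, likewise shared its peak with NDUFAF6, whose start was 4 bases from the peak's centre. CLSPN, a replication checkpoint gene, had RNA of 9.25, 8.61, 7.74 and 8.31, and its gained peak was intergenic and nearest to C1orf216. The peaks paired with AMPD3, CDT1 and CCNE2 were not gained with the GC trend removed. These pairs within 20 kb do not show which gene a peak regulates.

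Further paired genes had the greatest RNA differences in single lines. RIMS1, a gene of the presynaptic active zone, had RNA of 4.97 in naive cells, 7.07 (erCriz0), 5.88 (erAlec0) and 5.96 (erLor0), with a promoter peak at 3.79, 4.88, 5.88 and 4.81. The other peaks around RIMS1 changed by medians of -0.77, -1.08 and -1.13 in the 3 lines, opposite in sign to its own peak. DPYD, which starts pyrimidine breakdown, was higher in erCriz0 alone (8.19 against 6.38 in naive cells, 6.64 in erAlec0 and 6.24 in erLor0). KCNMA1, a potassium channel gene, and CXCL17, a mucosal chemokine gene, were highest in erLor0, at 7.69 against 5.93 and at 6.40 against 4.80 in naive cells. The lowest changes in erCriz0 besides CDT1 were at CACNG4, a calcium channel subunit gene (6.31 in naive cells, 5.15 in erCriz0), and EMID1 (5.41 and 4.41), and RNFT2 was lower in erAlec0 (6.65 and 5.36). The peaks of KCNMA1 and CACNG4 were not gained with the GC trend removed.

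Gene groups linked to resistance and to lung cells were paired with gained peaks about as often as genes in general. Of 271 genes in the table on 8 lists of such genes, 3 (1.11%) were paired with a gained peak, against 1.6% of all genes and 2.11% of expressed genes. They included ALK, of 48 receptor tyrosine kinase and ligand genes, and FOSL2, of 25 genes of AP-1, TEAD and YAP. The lists on EMT, matrix and adhesion (53 genes), on lung and epithelial lineage (36), on cytokines (43), on drug handling and redox (24) and on survival and the cell cycle (20) held 0, as can be the case for lists of this size at a share of 1.6%. RNA itself was at least 1 higher in erCriz0, erAlec0 and erLor0 for 15, 11 and 6 of 48 expressed EMT genes. The counts were 7, 9 and 2 of 28 cytokine genes and 3, 5 and 1 of 32 receptor kinase and ligand genes. They were 4, 2 and 0 of 22 AP-1, TEAD and YAP genes. The ERK and lineage lists each had 2, 2 and 1 of 24, and survival and the cell cycle 0 of 19. Of 18 drug handling genes 1, 0 and 0 were higher and 4, 5 and 0 at least 1 lower. In each other list at most 2 were lower in any line. Background shares are given above. The lists were chosen with earlier results known, and the paper had reported an EMT signature in the resistant lines. These counts support nothing on their own. FOSL2, the AP-1 factor FRA2, had RNA of 10.2 in naive cells, 11.5 (erCriz0), 10.5 (erAlec0) and 10.4 (erLor0), and a peak 7554 bases long, nearest to another gene's start, at 9.87, 11.3, 11.3 and 11.0. The other peaks within 1 Mb of it were 0.93 higher in erCriz0, the line with the highest FOSL2 RNA, and the peak was not gained with the GC trend removed.

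Genes induced by interferon were paired with gained peaks more often than genes in general. This list was chosen after its values were seen and supports nothing on its own. Of 51 such genes, 7 (13.7%, against 1.6% of all genes) were paired: DDX60, HERC6, IFIT1, RIGI, SHFL, TRIM14 and ZC3HAV1. The peak at the start of RIGI, a sensor of viral RNA, was at 7.32 in naive cells, 8.32 (erCriz0), 9.11 (erAlec0) and 8.80 (erLor0), and that of the helicase gene DDX60 at 5.65, 7.05, 6.81 and 6.85. A pair of intronic peaks paired with IFIT1 was at 4.43 and 4.52 in naive cells and between 5.76 and 6.15 in the resistant lines. RNA did not reach a change of 1 for any of the 7, while over the list 14 of 41 expressed genes were at least 1 higher in erCriz0 (median change 0.57), 4 in erAlec0 and 0 in erLor0. The peaks of HERC6, SHFL and ZC3HAV1 were not gained with the GC trend removed. RIGI RNA was 6.69 in naive cells, 7.58 (erCriz0), 6.64 (erAlec0) and 6.71 (erLor0), and HERC6 RNA 7.22, 7.51, 6.70 and 6.96. For 5 of the 7 (DDX60, HERC6, RIGI, SHFL and ZC3HAV1) RNA was higher in erCriz0 and lower in erAlec0 than in naive cells, by 0.89 or less either way, whereas the peaks were higher in both. Of 15 kallikrein genes, a list likewise chosen after its values were seen, 6 were paired with gained peaks, all at the locus described above.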

How the data were processed

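H3K27ac ChIP-seq and bulk RNA-seq values of 4 lines, with 1 library of each kind per line, were taken from the deposited table of 295240 pairs, each of a peak with a gene within 20 kb. The authors aligned ChIP-seq reads to hg38 with BWA, removed duplicates, filtered on a mapping quality of 25, and used MACS2 for peak calling on 4 samples, whose peaks they merged and counted with featureCounts. RNA reads were aligned with HISAT2 and counted with HTSeq-count by the authors. Versions are not given in the sources used here. The deposited values are rlog values on the log2 scale, for which the authors used DESeq2. Such values keep no read totals, so neither the depth nor a counting error can be given. The authors' columns for the correlation of each pair, its p-values and the mean levels were not used.

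A change is a resistant line's rlog less the naive one, called at 1. Expressed genes reach the log2 of 25 (4.64) in at least 1 library. Transcript starts came from GENCODE release 44, whose coordinates were identical to the table's for all 34115 genes with a matching identifier version. Coordinates are 1-based on hg38. Motifs were searched on both strands. The peaks named were the 10 with the greatest smallest change, 3 on each side of the limit, the 2 longest and the 2 with the highest naive level. The genes named were paired expressed genes changed in 2 or 3 lines, the 3 extremes per line, genes with at least 3 gained peaks and genes on the lists, and other genes are named where a result turns on them. A gene and a sequence that this rule selects are not reported here. The members and lists were chosen with earlier results of these data known. Other settings were centring, quantile normalization, other limits and filters, and a GC trend in 20 bins. On simulated data the scripts recovered all planted peaks. The planted shifts lay well above the limit and the noise was small, so this does not show how peaks near the limit fare. The software was matplotlib 3.10.9, scipy 1.17.1, pandas 2.3.3, numpy 2.4.6 and Python 3.11.15.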

Additional observations from a re-analysis of the deposited data

Results flagged for a closer look

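LRRN1, a leucine-rich repeat membrane protein gene, stood out because its RNA differed from naive cells in opposite directions in the resistant lines although its peak was gained in all 3. Its RNA was 5.27 in naive cells, 6.89 in erCriz0, 4.66 in erAlec0 and 4.10 in erLor0, a change of 1.62 in erCriz0 and -1.17 in erLor0. The peak at its start, shared with SUMF1, was at 3.81, 6.64, 4.83 and 5.02 in the same order. The difference between the lines was not tested, since each has 1 library.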

How the results depend on the processing

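The results were recomputed 106 times under other settings, of which 79 gave much the same value, 26 a different one and 1 the opposite sign. A limit of 0.75 gave 1518 gained peaks and a limit of 1.5 gave 6. At the limit of 1.5, where 1 expressed paired gene, FLT1, is left, the promoter share was 50%, the median length 1570.5 bases and the AP-1 share 0%, the median RNA change was -0.59 in erCriz0 and 0.62 in erLor0, and 0% of paired genes had RNA at least 1 higher in erCriz0, erAlec0 or erLor0. Quantile normalization gave a median length of 799 bases, and requiring overlap with a transcript start gave a promoter share of 35.9%. With the GC trend removed the promoter share was 23.1%. The AP-1 share was 2.74% in the central 150 bases and 11.8% more than 1 kb from a start. The 150 gained peaks written to at most 6 decimals and the 215 written to more had similar promoter shares (46.7% and 42.3%), but 1.67% and 6.08% of their genes had higher RNA in erAlec0 and 0% and 4.73% in erLor0. The median RNA change in erCriz0 was 0.024 without regions of gain, 0.15 with each library centred and 0.16 for peaks paired with 1 gene. With all paired genes not at 0 in all libraries it was 0.0085 in erCriz0 (3.39% higher by 1) and 0.014 in erLor0. A 1.5-fold limit on RNA gave 14.6, 9.7 and 9.33% in erCriz0, erAlec0 and erLor0. The cause of these differences was not tested, apart from the smaller number of peaks that a higher limit or a part of the table leaves by construction. The GC trend was the only setting chosen after seeing the data. No paired analysis was possible because each line has 1 library and no result comes from a test.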
